A study of Mus musculus with 2 samples.

Results

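The cycling tumour macrophages described here were cells of a mouse colon carcinoma that carried RNA of both the complement component C1q and the proliferation genes Mki67 and Top2a. A cell was counted as C1q-positive when C1qa, C1qb and C1qc together made up at least 0.1% of its UMIs (unique molecular identifiers, each counting 1 captured RNA molecule) and Cd3d, Cd3e and Cd3g together gave at most 1 UMI. It was counted as cycling when Mki67 and Top2a together gave at least 2 UMIs, and as non-cycling when they gave 0. This rule found 240 cells among 25200 in all, of which 1 lay in the library of tumours treated with photobiomodulation (PBM) and 239 in the control library. In the control library the cells with 1 UMI of Mki67 or Top2a, which belong to neither class, numbered 365, and the non-cycling C1q-positive cells numbered 1832. The cells were thus chosen by their UMIs of Mki67, Top2a, the C1q genes and the Cd3 genes. Because of that, and because the other genes were read in the same cells, ratios between cycling and non-cycling cells are given as a description and not as a test.

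The tumours were grown under the skin of C57BL/6 mice, labelled wild type (WT), from implanted MC38 cells, a mouse colon carcinoma line. The treated mice received PBM, a treatment with light, every day from day 7 after implantation, the control mice are labelled only as control, and all tumours were taken on day 14. Immune cells were sorted from the tumours by CD45, pooled within each condition and profiled by single-cell RNA sequencing at the 3′ end, giving 1 library per condition. Age, sex and the number of mice pooled are not given in the sources used here, and with 1 library per condition no difference can be set against the spread between animals, so no p-value is given and every interval covers counting error only. The labels name the cell type as tumor cells, whereas Ptprc, the gene of CD45, stood at 195 CPM (UMIs of the gene per 1000000 UMIs of the cell or group of cells) in cycling and 181 CPM in non-cycling C1q-positive cells of the control library.

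Most tumour macrophages derive from blood monocytes and stop dividing as they mature, while tissue macrophages can also renew themselves by division under the growth factor CSF1, which signals through the receptor CSF1R. Entry into the cell cycle runs through D-type cyclins with CDK4 and CDK6, then cyclin E and CDK2, which release the E2F transcription factors that switch on genes of DNA replication. Later MYBL2, bound to the MuvB complex, and FOXM1 switch on the genes of mitosis, and the anaphase-promoting complex (APC/C) ends mitosis by marking cyclins for destruction.

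The median UMIs of all barcodes were similar in the libraries, but those of C1q-positive cells were not (2053.5 in PBM and 7621 in control). In the PBM library 86159897 UMIs came from 13962 barcodes (median 5143.5), and in the control library 104673228 UMIs came from 11238 barcodes (median 5621.5). The libraries shared 1991 barcode names and listed 22483 genes in common. C1q-positive cells numbered 38 in the PBM library and 2436 in the control library, which is 0.272% (exact 95% interval 0.193 to 0.373) and 21.7% (20.9 to 22.5) of barcodes.

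The name macrophage was not borne out for the PBM cell. It held 1849 UMIs from 753 genes, with 4 UMIs of C1qa, 4 of C1qb and 3 of C1qc. Both of its proliferation UMIs were of Mki67. The macrophage genes Csf1r, Adgre1 and Cd68 had 0 UMIs in it and Lyz2 had 1, whereas Cd74, which B cells also carry, had 25 and the B cell receptor gene Cd79a had 1. Of other B cell genes Igkc had 1 UMI and Cd79b and Ms4a1 had 0, and the T cell gene Cd3d had 1. Among all 38 C1q-positive cells of that library, 19 (50%) held more than 1 UMI of B cell markers and 17 (44.7%) held any Csf1r, at a median of 2053.5 UMIs per cell. Cycling cells thus made up 2.63% of C1q-positive cells in the PBM library (1 of 38, 0.0666 to 13.8) and 9.81% in the control library (239 of 2436, 8.66 to 11.1). The shares of these libraries were -7.18 percentage points apart, PBM minus control, and with 1 library of each condition that is no comparison of the conditions at any number of cells. Gene levels were not compared between the conditions in these cells, and all that follows is about the control library.

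In the control library the macrophage identity of the cycling cells was plain in the genes the rule did not use. All 20 genes of a macrophage identity list were detected, and their summed level was 28355 CPM in cycling and 30407 CPM in non-cycling cells. Per cell it ran from 2034 over a median of 27168 to 65031 CPM in cycling cells, and from 633 over 26605 to 137979 in non-cycling cells, so the groups overlapped over the whole cycling range. Csf1r, the receptor for CSF1, was present in 87.9% of cycling and 76.1% of non-cycling cells, at 372 and 375 CPM. The median depth of the cycling C1q-positive cells was 14351 UMIs. Cycling T cells, which should lack Csf1r, carried it at 57.8 CPM and in 41.1% of cells, at a median depth of 16883 UMIs. The rule gene C1qa stood at 3044 CPM in cycling cells, 2554 CPM in non-cycling cells and 81.1 CPM in cycling T cells.

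Cycling cells were larger libraries. A cycling cell held between 1135 and 88578 UMIs with a median of 14351, and a non-cycling cell between 1017 and 47480 with a median of 6537, and the medians of detected genes were 3176 and 1810. Mki67, a marker protein of all phases but rest, had a median of 2 UMIs and a highest value of 30 per cycling cell, and Top2a, the topoisomerase that untangles chromosomes, a median of 2 and a highest value of 48. Both genes were seen in 149 cycling cells (62.3%), Mki67 alone in 54 (22.6%) and Top2a alone in 36 (15.1%). The cycling share differed with depth. It was 3.27% below 5000 UMIs, 8.25% from 5000 to under 10000, 11.8% from 10000 to under 20000 and 29.1% above, and the level of Mki67 and Top2a, which does not depend on a limit of 2 UMIs, was 73.1, 74.5, 65.3 and 148 CPM in the same bins.

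The thresholds of the rule cut through continuous values. The 73 cells with exactly 2 UMIs of Mki67 and Top2a carried replication and nucleotide genes at 1291 CPM and mitosis genes at 1193 CPM. The 365 cells just outside, with 1 UMI, stood at 912 and 831 CPM, the non-cycling cells at 809 and 750 CPM, and the 166 cells with 3 or more at 2298 and 4122 CPM. On the C1q limit 22 cycling cells lay between 0.1% and 0.2%, and 52 cells that otherwise met the rule lay between 0.05% and 0.1%. On the Cd3 limit 109 cycling cells held 1 UMI, while 66 cells with 2 UMIs and 71 with 3 or more were left out.

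Across all genes with at least 20 summed UMIs, 587 of 11991 (4.9%) were at least 2-fold higher in cycling than in non-cycling cells with an exact 95% interval that left out equal levels, and 199 (1.66%) were lower. These shares come from the contrast that the rule used. The median log2 ratio of all genes was 0.08. With TMM scaling factors the counts were 497 higher and 284 lower, so that 63.6% of calls were higher in place of 74.7%, and the median was -0.03. Below, a gene is called higher or lower by this rule, and log2 ratios are of summed CPM, cycling over non-cycling.

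**Figure D1:**
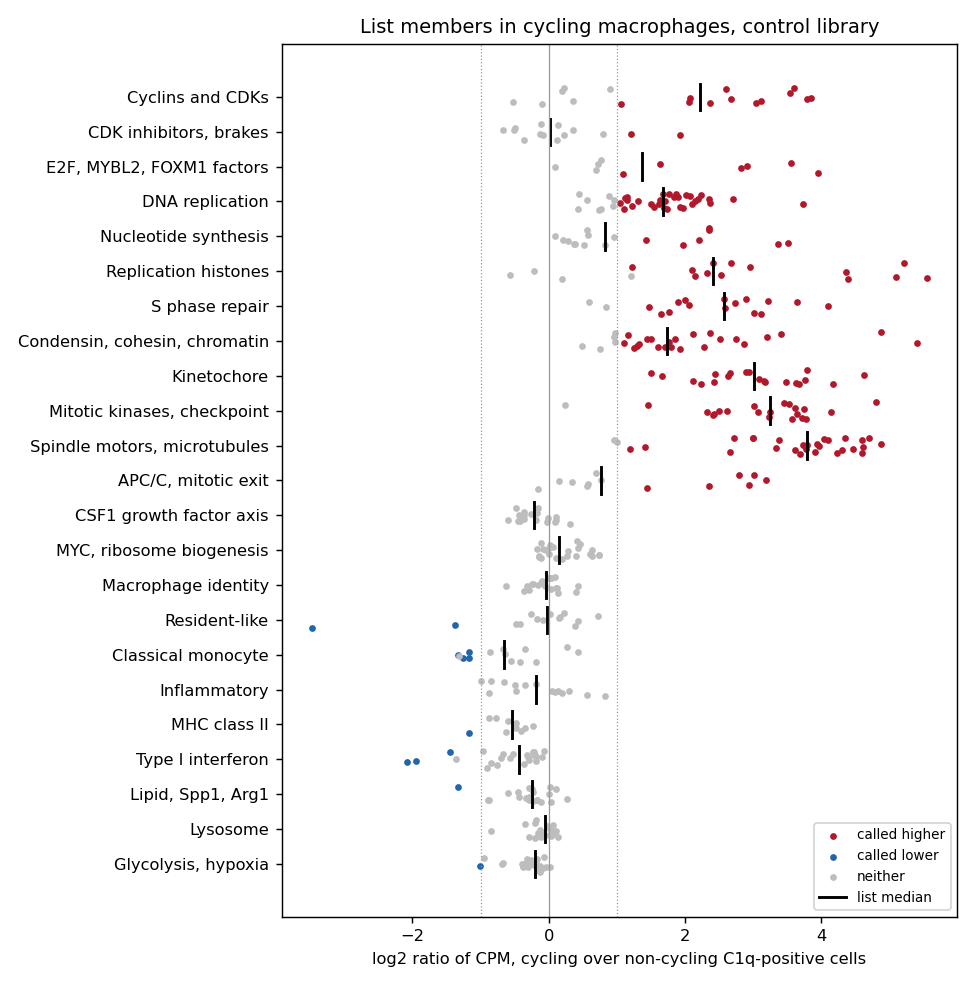
Each point is 1 gene of a list, placed by its log2 ratio of CPM in cycling over non-cycling C1q-positive cells of the control library, with red for genes called higher, blue for genes called lower, grey for neither, a black bar at the list median and dotted lines at 2-fold. The cell cycle lists in the upper part lie mostly to the right of the 2-fold line, with medians up to 3.79 for the spindle list, while most genes of macrophage lists lie between the lines.

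Cyclins and their kinases split by phase. Of 18 genes 12 were called higher and none lower, with a median log2 ratio of 2.22. Ccna2, the cyclin of DNA replication and early mitosis, stood at 65.5 CPM in cycling and 4.74 CPM in non-cycling cells (3.79, interval 3.41 to 4.19) and was seen in 39.7% and 3.60% of cells. Ccnb1, the mitotic cyclin, stood at 39.0 and 3.35 CPM (3.54), its partner kinase Cdk1 at 90.4 and 11 (3.04), Ccne1 at 17.5 and 2.76 (2.67) and Ccne2 at 23.9 and 2.76 (3.11). The D-type cyclins, which carry growth factor signals into the cycle, were not among those called. Ccnd1 stood at 215 and 185 CPM (0.22, 0.11 to 0.33), Ccnd2 at 40.0 and 57.7 (-0.53, -0.78 to -0.29) and Ccnd3 at 61.9 and 66.5 (-0.10, -0.31 to 0.10). Their partners Cdk4 (127 and 99.4 CPM, 0.36) and Cdk6 (68.9 and 60.5 CPM, 0.19) were not called either.

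The transcription factors of the cycle were low in level and mostly higher. Of 10 genes of the E2F, MYBL2 and FOXM1 list 6 were called higher and none lower, with a median of 1.36 and summed levels of 181 and 77.5 CPM. Foxm1, the factor of mitotic genes, stood at 20.2 and 1.32 CPM (3.94, 3.22 to 4.73), and Mybl2 at 10.2 and 1.45 CPM (2.82, 2.05 to 3.64). The atypical repressors E2f7 (3.55) and E2f8 (2.91) were called higher, and the activator E2f1 was not, at 37.5 and 22 CPM (0.77, 0.48 to 1.05).

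Genes of DNA replication formed the broadest set. Of 39 licensing and fork genes 31 were called higher and none lower (median 1.68), and the list summed to 1338 CPM in cycling and 505 CPM in non-cycling cells. The 6 subunits of the replicative helicase, Mcm2 to Mcm7, had log2 ratios of 1.32 to 2.07, and the sliding clamp gene Pcna stood at 105 and 48.6 CPM (1.11, 0.94 to 1.29). Clspn, an adaptor of the replication checkpoint, had the highest ratio of the list, at 28.7 and 2.17 CPM (3.73, 3.16 to 4.33). Among the 8 that were not called were the licensing factor Cdt1 (0.56), the nuclease gene Dna2 (0.44) and the clamp loader subunit Rfc2 (0.43). Of 17 genes of homologous recombination and fork repair 15 were called higher, with Brca1 at 10.7 and 1.45 CPM (2.89).

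Among 17 nucleotide synthesis genes 7 were called higher and none lower, with a median of 0.82. The 7 serve the supply of deoxynucleotides. Rrm2, the regulated subunit of ribonucleotide reductase, stood at 47.0 and 4.14 CPM (3.50, 3.09 to 3.94), thymidine kinase Tk1 at 75.8 and 7.37 CPM (3.36), and Tyms, Rrm1, Shmt1 and Dut were also called, with 2.35, 2.35, 1.97 and 1.43. Genes of purine and pyrimidine ring synthesis stayed below the 2-fold line, among them Paics (0.82), Umps (0.51), Gart (0.39) and Atic (0.09).

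Histone genes of the replication-dependent clusters held some of the highest single ratios (median 2.40). Their mRNAs mostly lack poly(A) tails, which this kit primes on, and the gene copies are near-identical, so the values for single copies are uncertain. Of 17 measured genes 13 were called higher. Hist1h1b, a linker histone, stood at 60.9 and 1.78 CPM (5.10, 4.52 to 5.73), Hist1h3c at 36.5 and 0.987 CPM (5.21) and Hist1h2ae at 124 and 6.05 CPM (4.36). The 4 that were not called were Hist1h1c (86.0 and 100.2 CPM, -0.22), Hist1h2bc (0.19), Hist1h4i (-0.57) and Hist2h4 (1.21, -0.09 to 2.44). Hist2h2aa2, a histone gene outside this list, was called lower, at 23.6 and 55.2 CPM (-1.23, -1.54 to -0.92).

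The mitosis lists had the highest medians. Of 21 mitotic kinase and checkpoint genes 20 were called higher (median 3.25), and of 29 spindle genes 27 (median 3.79), and all 20 kinetochore genes (median 3.01), with none called lower in any of these lists. Kif23, the motor of the central spindle in cytokinesis, stood at 71.4 CPM in cycling and 2.43 CPM in non-cycling cells (4.87, 4.38 to 5.41) and was seen in 40.2% and 1.86% of cells. Plk1, the kinase that drives mitotic entry and exit, stood at 78.7 and 2.83 CPM (4.80, 4.34 to 5.29) and was seen in 40.2% and 2.02% of cells. Other leading genes were the kinetochore gene Cenpf (69.9 and 2.83 CPM, 4.63), the spindle gene Ckap2l (80.2 and 3.29 CPM, 4.61), the kinetochore motor Cenpe (67.0 and 3.03 CPM, 4.47), the midzone bundler Prc1 (55.1 and 3.35 CPM, 4.04), Cdca3, which helps mitotic entry (129.6 and 9.87 CPM, 3.72), and the spindle assembly factor Tpx2 (81.6 and 6.18 CPM, 3.72). Birc5 (survivin), a subunit of the chromosomal passenger complex, stood at 163 and 14.1 CPM (3.52), and its kinase Aurkb at 23.4 and 2.89 CPM (3.01). The genes that did not pass were abundant in non-cycling cells too. They were the checkpoint gene Bub3 (69.4 and 58.7 CPM, 0.24) and the tubulins Tuba1b (0.95) and Tubb5 (0.99), which have close paralogs.

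Chromosome structure and mitotic exit followed the same order. Of 28 condensin, cohesin and chromatin genes 23 were called higher (median 1.74). Esco2, the cohesin acetyltransferase of S phase, had 13.9 and 0.329 CPM (5.40, 4.09 to 7.08), and the condensin subunit Ncapg 19.2 and 0.658 CPM (4.87). More abundant members had smaller ratios, such as Hmgb2 (405 and 113 CPM, 1.84) and the histone variant H2afz (906 and 419.7 CPM, 1.11). Of 13 APC/C and exit genes 6 were called higher (median 0.77). They included the activator Cdc20 (49.9 and 6.51 CPM, 2.94) and the ubiquitin-conjugating enzyme Ube2c (129 and 16.0 CPM, 3.01), whereas securin, Pttg1, stood at 36.5 and 40.8 CPM (-0.16, -0.43 to 0.10). Pclaf, a partner of PCNA, had the highest share of cells among the 12 genes named for their ratios, with 63.6% of cycling and 7.86% of non-cycling cells and 208 and 14.3 CPM (3.86).

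The promoters of these groups differed in the short motifs of the cell cycle factors. RefSeq windows of GRCm38.p6 from 250 bases before to 50 bases after a start site were searched on both strands for the cell cycle homology region (CHR), TTTGAA, which MuvB complexes bind, and for CCAAT boxes, spelled CCAAT. They were also searched for 4 forms of the E2F site, namely TTCCCGC, then the form TTGGCGC, then the form TTCGCGC, and last the form TTGCCGC. The form TTGGCGC, read on the other strand, can share bases with a CCAAT match. A CHR match stood in 22 of 28 windows of spindle genes (78.6%), 10 of 19 of kinetochore genes (52.6%) and 4 of 35 of replication genes (11.4%), against 17.9% of all 32851 windows of 27025 genes. An E2F match stood in 22 of 35 windows of replication genes (62.9%), 9 of 13 of repair genes (69.2%) and 7 of 28 of spindle genes (25%), against 9.57% of all windows. CHR and CCAAT stood together in 18 of 28 spindle windows (64.3%), against 6.95% of all. In macrophage identity genes CHR stood in 22.2% and E2F in 16.7% of 18 windows. Spindle windows came from 26 of 29 list genes and replication windows from 31 of 39, and no window was matched to a gene of the histone list. A match is a description of letters and not a site of binding. The windows of Kif23 and Plk1, the leading mitotic genes with CHR and CCAAT, and of Clspn and Rrm2, the leading replication and nucleotide genes with an E2F form, are printed 5′ to 3′ on the gene's strand, in lower case with the matches in capitals (CHR and CCAAT, or its complement ATTGG, in Kif23 and Plk1, E2F in Clspn and Rrm2).
Kif23, chr9:61946750-61947049, minus strand: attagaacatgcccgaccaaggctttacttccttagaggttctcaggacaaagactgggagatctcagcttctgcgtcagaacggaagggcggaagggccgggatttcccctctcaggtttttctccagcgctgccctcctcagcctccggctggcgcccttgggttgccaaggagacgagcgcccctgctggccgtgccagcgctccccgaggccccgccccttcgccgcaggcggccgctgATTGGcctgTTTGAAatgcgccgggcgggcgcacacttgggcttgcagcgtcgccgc
Plk1, chr7:122159185-122159484, plus strand: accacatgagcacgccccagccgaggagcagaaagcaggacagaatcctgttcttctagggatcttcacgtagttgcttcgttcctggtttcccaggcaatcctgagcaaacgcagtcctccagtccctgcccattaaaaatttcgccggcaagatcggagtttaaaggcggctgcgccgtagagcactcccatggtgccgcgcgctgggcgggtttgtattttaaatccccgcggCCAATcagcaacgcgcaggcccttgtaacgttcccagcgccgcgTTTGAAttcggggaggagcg
Clspn, chr4:126556730-126557029, plus strand: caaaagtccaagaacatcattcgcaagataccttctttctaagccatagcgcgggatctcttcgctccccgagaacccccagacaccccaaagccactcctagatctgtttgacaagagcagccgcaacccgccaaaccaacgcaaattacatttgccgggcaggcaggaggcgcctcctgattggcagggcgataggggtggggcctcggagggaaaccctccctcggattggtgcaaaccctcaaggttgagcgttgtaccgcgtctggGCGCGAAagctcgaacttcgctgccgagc
Rrm2, chr12:24708004-24708303, plus strand: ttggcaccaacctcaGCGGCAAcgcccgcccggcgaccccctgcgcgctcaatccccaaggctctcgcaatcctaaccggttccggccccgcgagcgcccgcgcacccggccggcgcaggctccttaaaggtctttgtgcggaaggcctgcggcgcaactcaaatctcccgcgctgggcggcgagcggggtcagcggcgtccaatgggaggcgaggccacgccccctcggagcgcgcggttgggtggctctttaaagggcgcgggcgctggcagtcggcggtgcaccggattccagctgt
In Kif23 the CHR begins 2 bases after the start site and the complement of CCAAT 7 bases before it, and in Plk1 the CHR begins 30 bases after and the CCAAT 14 bases before it. The E2F form of Clspn begins 21 bases after the start site and that of Rrm2 235 bases before it.

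Single cells differed in which part of the cycle their RNA showed. Replication and nucleotide genes (56 genes) made up a lowest, median and highest level of 0, 1347 and 8286 CPM in cycling cells and of 0, 685 and 10603 in non-cycling cells. Mitosis genes (78 genes) made up 78.2, 2974 and 18983 CPM in cycling cells and 0, 683 and 13699 in non-cycling cells. The groups overlapped on both axes, but unequally, since 15.2% of non-cycling cells (279) reached the cycling median for replication and 2.29% (42) reached it for mitosis. After each cell was thinned to 5000 UMIs, the cycling median of 7 replication UMIs was reached by 51.2% of cycling cells, 16.6% of cells with 1 UMI of Mki67 or Top2a and 12.7% of non-cycling cells. The cycling median of 13 mitosis UMIs was reached by 50.7%, 2.47% and 1.29% of them. The thinned sets held 211, 283 and 1086 cells. Because Mki67 and Top2a set these groups, the unequal overlap describes the rule and not the phases of all dividing macrophages.

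**Figure D2:**
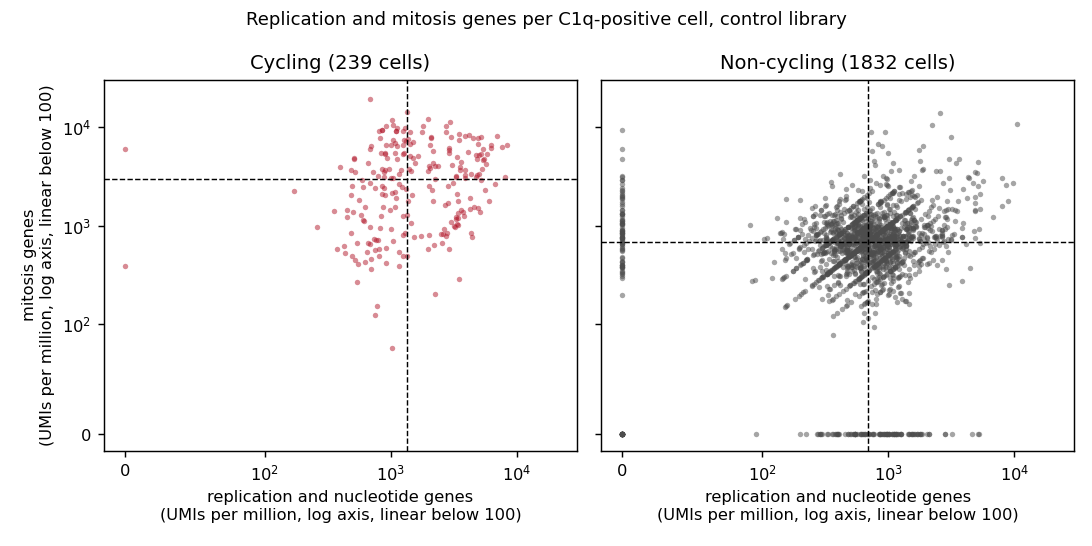
Each point is 1 C1q-positive cell of the control library, with the CPM of 56 replication and nucleotide genes on the horizontal axis and of 78 mitosis genes on the vertical axis (log axes, linear below 100), cycling cells on the left and non-cycling cells on the right, and dashed lines at each group's medians. Cycling cells spread upward to 18983 CPM for mitosis genes and fall into a left and a right cloud for replication genes, while non-cycling cells gather near 685 and 683 CPM.

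By whether a cell held more UMIs of the mitosis or of the replication and nucleotide list, 144 cycling cells (60.3%) were mitosis-led, 91 (38.1%) were replication-led and 4 were tied. This split was chosen after the data were seen, and 28 cells lay within 2 UMIs of the border. The cells were chosen by Mki67 and Top2a, and the lists differ in size (78 mitosis genes and 56 replication and nucleotide genes). The shares thus describe the cells that the rule found and not the phases of all dividing macrophages. The depths were alike, with medians of 14347 and 15443 UMIs, and the medians of Mki67 and Top2a together were 5 and 3 UMIs. Outside the lists that made the split, 251 of 9034 genes (2.78%) were called higher and 236 (2.61%) lower in mitosis-led cells. The cyclins followed their known phases. Ccnb2 stood at 124 CPM in mitosis-led and 3.73 CPM in replication-led cells (log2 ratio 5.06), Ccnb1 at 60.1 and 8.08 CPM (2.90) and Ccna2 at 97.4 and 19.3 CPM (2.34). The phosphatase gene Cdkn3 (127 and 13.7 CPM, 3.21), Foxm1 (log2 ratio 3.08) and the phosphatase Cdc25c (5.26) were also higher in mitosis-led cells. Ccne2 (-1.76), Ccne1 (-1.51), Mybl2 (-1.30), Cdc25a (-1.30) and E2f1 (25.4 and 56.5 CPM, -1.16) were lower in them. Knstrn (2.90), Cks2 (1.79), Hist1h4d (1.77), Rad21 (1.62) and Cks1b (1.52), most of them genes of the spindle, the CDKs or cohesin, completed the genes named as higher. Of 28 condensin, cohesin and chromatin genes 5 were called higher in mitosis-led cells and 2 lower (median 0.50). The lower ones were the helicase Hells at 16.4 and 54.7 CPM (-1.74) and the methylation maintenance factor Uhrf1 at 30.3 and 68.9 CPM (-1.19). Of 15 replication-dependent histone genes 7 were called higher and none lower (median 0.98), and of 15 repair genes 1 was higher and 3 lower (median -0.60).

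Most genes of macrophage lists were not called between mitosis-led and replication-led cells. None of the 20 identity genes was called, with a list median of -0.16 against 0.01 over all genes, and no MHC class II gene was called. Of 19 type I interferon genes 3 were called lower in mitosis-led cells (median -0.47), against 2.61% of all genes. They were the interferon-induced genes Oas3 (6.14 and 17.4 CPM, -1.50), Oasl1 (-1.09, -2.15 to -0.06) and Ifi205 (-1.46). These calls rested on few UMIs, 15 and 28 for Oas3, 15 and 21 for Oasl1 and 16 and 29 for Ifi205. Of 12 resident-like genes 1 was called lower (median -0.47), the hyaluronan receptor gene Lyve1, at 1.64 and 17.4 CPM in 2.78% and 5.49% of cells. Of 21 genes of a list of lipid-handling genes, Spp1 and Arg1, 2 were called lower (median -0.11). They were the fatty acid carrier gene Fabp4 (2.05 and 11.8 CPM, from 5 and 19 UMIs) and the fatty acid receptor gene Cd36 (9.82 and 21.7 CPM, from 24 and 35 UMIs). Among the named genes the lysosomal enzyme gene Hgsnat (63.0 and 130.4 CPM, -1.05) was lower, as were Ipo5 (-1.13), Psd3 (-1.10) and Srm (-1.08). Ch25h, the enzyme of an oxysterol signal, stood at 48.7 and 117 CPM (-1.27) and the aminopeptidase Anpep at 29.5 and 62.1 CPM (-1.08). The chemokine gene Ccl17 stood at 164 and 22.4 CPM (2.87) and Retnla, a gene of alternative activation, at 7.36 and 78.9 CPM (-3.42), though only 14.6% and 12.1% of cells held Ccl17 and 6.25% and 5.49% held Retnla.

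Most genes that restrain the cycle were not called. Of 14 CDK inhibitors and brakes 2 were called higher, against 4.9% of all genes, and the list median was 0.02. The 2 were Cdkn2c (31.9 and 8.42 CPM, 1.92), an inhibitor of CDK4 and CDK6, and Rbl1 (17.3 and 7.5 CPM, 1.21), a relative of the retinoblastoma protein. Maf, a transcription factor of mature macrophages, was not called (310 and 286 CPM, 0.12, 0.02 to 0.21). Cdkn1a, the inhibitor p21, was abundant in both groups, at 369 and 398 CPM (-0.11). Of 18 genes of the CSF1 growth factor axis none was called (median -0.22), with the ligand gene Csf1 at 9.26 and 8.62 CPM (0.10) and the lineage factor Spi1 at 262 and 298 CPM (-0.18).

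Growth genes showed no 2-fold step. Of 24 MYC and ribosome biogenesis genes none was called, with a median of 0.15 against 0.08 over all genes. Myc itself stood at 28.5 and 30.9 CPM (-0.12, -0.42 to 0.18). The highest ratios of the list were those of Ranbp1 (259 and 155 CPM, 0.74), Dkc1 (28.3 and 17.0 CPM, 0.74) and the transport GTPase Ran (358 and 231 CPM, 0.63), of which Ran and its partner Ranbp1 also serve the spindle. The medians of oxidative phosphorylation (0.04) and cholesterol synthesis (0.08) lay near that of all genes.

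None of the 20 macrophage identity genes was called, and their median log2 ratio was -0.04. Lyz2 (lysozyme) stood at 9305 CPM in cycling and 8433 CPM in non-cycling cells (0.14), the F4/80 gene Adgre1 at 77.5 and 72.1 (0.10), Cd68 at 484 and 521 (-0.11) and the endotoxin co-receptor Cd14 at 253 and 392 (-0.63). Among genes of resident-like macrophages, Stab1, a scavenger receptor, stood at 356 and 216 CPM (0.72, 0.63 to 0.81), Mrc1, the mannose receptor, at 548 and 406 CPM (0.43), the platelet factor Pf4 at 2491 and 2122 CPM (0.23) and the folate receptor Folr2 at 136 and 134 CPM (0.01). None of these passed 2-fold, and of the 14 measured genes of the list the 2 called, Cd163 and Cd209f, were lower and rested on low levels of 2.44 and 0.244 CPM in cycling cells. With C1q required at 1% of UMIs the log2 ratios of Stab1 and Mrc1 were -0.01 and -0.05.

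**Figure D3:**
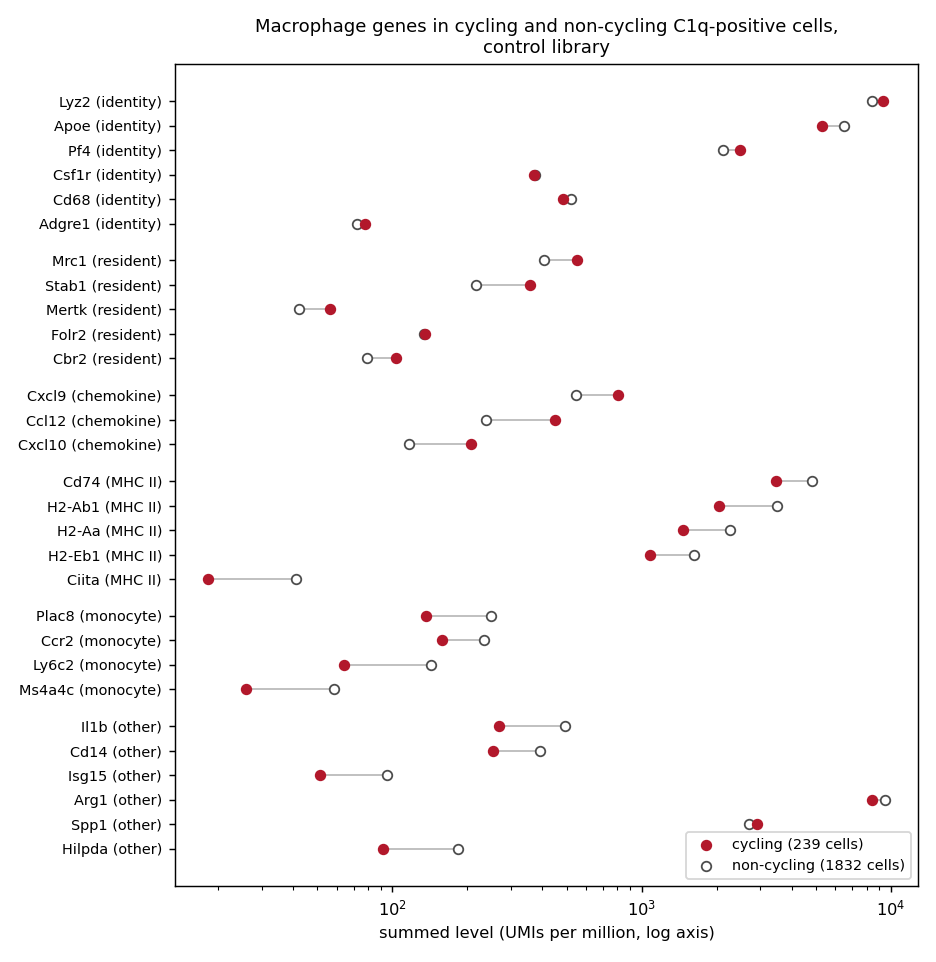
Summed levels of macrophage genes in cycling (red, 239 cells) and non-cycling (open, 1832 cells) C1q-positive cells of the control library, in CPM on a log axis. Identity genes such as Csf1r (372 and 375 CPM) nearly coincide, Stab1 and Ccl12 lie to the right in cycling cells, and genes of MHC class II lie to the left.

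Chemokine genes lay on both sides of equal levels. Ccl12, which draws CCR2-bearing monocytes in mice, stood at 451 CPM in cycling and 237 CPM in non-cycling cells (0.93, 0.85 to 1.01), just under the 2-fold line. The interferon-induced T cell attractants Cxcl10 (206 and 116 CPM, 0.83) and Cxcl9 (808 and 547 CPM, 0.56) stood higher too, whereas Ccl5 (289 and 574 CPM, -0.99) and the eotaxin gene Ccl24 (106 and 183 CPM, -0.79) stood lower. Of the 17 genes only Cxcl1, at 0.731 and 3.49 CPM, was called, as lower. A marker filter left out cells with more than 1 UMI of NK, of B cell or of epithelial markers. It left out cells with stromal genes such as Sparc at 0.1% of UMIs or more, or S100a8 and S100a9 at 1% or more. Cells with under 2 UMIs of Csf1r, Adgre1, Mertk and Fcgr1 together were left out too. That step met 444 non-cycling and 28 cycling cells, the most of any step. In the cells that the filter kept, 1 of the 17 was called higher and 3 lower. In those cells Ccl12 (1.03) was called higher and Ccl5 (-1.15) lower. Ccl12 had a log2 ratio of 1.36 against 170 non-cycling cells drawn to the depth of the cycling cells, 0.41 without barcodes over 20000 UMIs and 0.02 with C1q at 1% of UMIs or more. Cxcl9 turned to -0.45 in cells thinned to 2000 UMIs.

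Genes of MHC class II, which present antigen to CD4 T cells, had lower summed levels in cycling cells, mostly short of 2-fold. All 10 measured MHC class II genes had a log2 ratio below 0 (median -0.54), and their summed level was 8669 CPM in cycling and 13003 CPM in non-cycling cells. H2-Ab1 stood at 2046 and 3504 CPM (-0.78, -0.81 to -0.74), H2-Aa at 1467 and 2268 (-0.63) and the invariant chain Cd74 at 3456 and 4823 (-0.48). Only Ciita, the master regulator of the class, was called lower, at 18.3 and 41.1 CPM (-1.17, -1.54 to -0.82). Against depth-matched non-cycling cells the list median was -0.38, that of H2-Ab1 -0.57 and that of Ciita -0.64. B cell and dendritic cell markers, whose cells also carry these genes, went the same way, with 27.3 and 73.8 CPM for all 11 B cell markers and 197 and 235 CPM for all 12 dendritic markers. Per cell the B cell list ran from 0 to 348 CPM in cycling and from 0 to 58861 in non-cycling cells, and the dendritic list from 0 to 999 and from 0 to 8101. The marker filter, which also drops cells with few macrophage receptor UMIs, kept 183 cycling and 1307 non-cycling cells. In them the B cell level was 25.4 and 30.5 CPM and the MHC class II median was -0.50. None of the 10 was called, with Ciita at 21.1 and 38.2 CPM (-0.86).

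Genes of the classical monocyte, the precursor of tumour macrophages, stood lower in the whole set, and some were near equal at equal depth. Of 14 genes 4 were called lower, against 1.66% of all genes, namely Ly6c2, Ms4a4c, Vcan and Gm9733 (median -0.65). Ly6c2, the surface marker of classical monocytes, stood at 64.1 and 144 CPM (-1.16, -1.35 to -0.98), the monocyte gene Plac8 at 137 and 249 (-0.86) and the receptor Ccr2 at 158 and 232 (-0.56). Against depth-matched cells the ratios were 0.043 for Ly6c2, -0.06 for Plac8 and -0.30 for Ccr2, while Ms4a4c (-0.80) and Vcan (-1.44) stayed lower, and the list median was -0.13. The part of cell depth in these differences cannot be told apart from that of the cycle, since the rule selects deeper cells.

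Genes of the type I interferon list stood lower, mostly short of 2-fold, and inflammatory genes went both ways. Of 24 type I interferon response genes 3 were called lower, against 1.66% of all genes. They were the antiviral genes Rsad2 (4.39 and 18.6 CPM, -2.09), Ifit3 (-1.95) and Ifit1 (-1.45). All 24 had ratios below 0 (median -0.44, and -0.24 at matched depth). None of the 15 measured inflammatory genes was called, with Il1b at 267 and 492 CPM (-0.88) and Nos2 at 81.6 and 74.6 CPM (0.13). The matrix metalloprotease gene Mmp9 was called lower, at 1.71 and 17.2 CPM (-3.33), but was seen in only 2.93% and 3.22% of cells. Lysosome (median -0.06), Fc receptor (-0.08) and complement lists (-0.19) had no called gene.

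Some of the genes with the lowest ratios are known from other cells. Slpi, a secreted protease inhibitor, stood at 26.6 and 66.8 CPM (-1.33) and Hilpda, a hypoxia-induced lipid droplet protein, at 91.8 and 184 CPM (-1.0). Gzma (49.0 and 110 CPM, -1.16) and Xcl1 (27.3 and 58.9 CPM, -1.11) are genes of NK and T cells, and Retnla (35.3 and 78.8 CPM, -1.16) was held by 5.86% and 5.35% of cells. All 12 NK markers were detected and summed to 240 CPM in cycling and 379 CPM in non-cycling cells, with 0 to 8463 and 0 to 44653 CPM per cell. In the cells that the marker filter kept they summed to 182 and 211 CPM. Before that filter, 27 cycling cells (11.3%) and 103 non-cycling cells (5.62%) held more than 1 UMI of the NK markers that it uses. This limit depends on depth, and the median depths were 14351 and 6537 UMIs. In the cells that the filter kept, Gzma stood at 37.6 and 50.0 CPM (-0.41) and Xcl1 at 24.5 and 32.1 CPM (-0.39), and neither was called. Slpi (-1.35), Hilpda (-1.04) and Retnla (-1.11) were still called. The other lists of foreign markers summed to 114 and 145 CPM for T cells, 107 and 182 CPM for neutrophils, 98.4 and 114 CPM for stromal cells, 42.9 and 42.6 CPM for epithelial tumour cells and 27.0 and 28.9 CPM for endothelial cells. Other genes named by the rule had levels in cycling and non-cycling cells of 23.6 and 55.2 CPM for Hist2h2aa2, 25.6 and 50.2 for Aldoc, 29.0 and 56.8 for Atf3 and 203 and 379 for Ifitm1, of which only Hist2h2aa2 passed 2-fold.

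Few metabolic genes passed the 2-fold line. Of 24 glycolysis and hypoxia genes 1, Hilpda, was called lower and none higher (median -0.20), with Vegfa at 40.9 and 65.8 CPM (-0.69) and Ndrg1 at 59.0 and 94.3 CPM (-0.68). Of the 21 genes of the lipid, Spp1 and Arg1 list only Vcan, also a gene of the monocyte list, was called, as lower (median -0.24). The arginine-degrading enzyme Arg1 stood at 8381 and 9454 CPM (-0.17), the lipid droplet coat gene Plin2 at 153 and 208 (-0.45) and ferritin Fth1 at 8144 and 10983 (-0.43).

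At the same depth per cell, the share counted as cycling differed with the summed level of some gene lists. For this, 1348 marker-filtered C1q-positive cells were thinned to 5000 UMIs and cut into terciles by the level of a list, and the share with at least 2 UMIs of Mki67 and Top2a was read. By the resident-like list the share was 3.33% (1.88 to 5.44) in the lowest, 6.46% in the middle and 9.35% (6.82 to 12.4) in the highest tercile. That level is a sum led by 1 gene, Pf4, with 2491 of the list's 4499 CPM in all cycling cells before filter and thinning. The median log2 ratio of the list's genes, cycling over non-cycling, was -0.03. By the glycolysis and hypoxia list it ran the other way, with 11.1% (8.36 to 14.4), 5.35% and 2.67% (1.39 to 4.62). So it did by the lipid, Spp1 and Arg1 list (below, the lipid list), which is not of lipid genes alone, with 10.2%, 5.79% and 3.12%. By MHC class II the shares were 7.33%, 8.24% and 3.56%, by the CSF1 axis 8.44%, 6.90% and 3.79%, by the lysosome list 7.78%, 8.24% and 3.12%, by the inflammatory list 6.22%, 7.57% and 5.35% and by the classical monocyte list 7.33%, 7.13% and 4.68%. Of the 10 lists read this way, the intervals of the lowest and highest terciles did not overlap for 5, the resident-like, glycolysis, lipid, CSF1 axis and lysosome lists. With at least 1 UMI the resident-like shares were 12%, 17.8% and 19.6% and the glycolysis shares 23.3%, 11.4% and 14.7%, so the middle and highest glycolysis terciles changed places. At that limit the lowest and highest terciles of the lipid (18.9% and 13.8%), CSF1 axis (18.7% and 12.9%) and lysosome lists (19.3% and 13.1%) had intervals that overlapped. List UMIs count toward the fixed 5000, and no test was made.

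**Figure D4:**
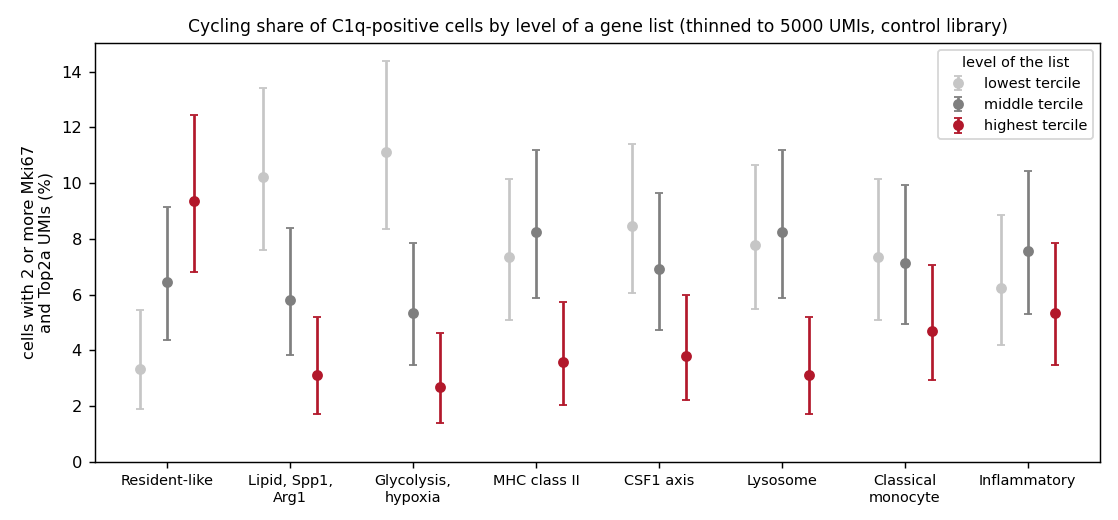
Share of C1q-positive cells of the control library with at least 2 UMIs of Mki67 and Top2a (percent, cells thinned to 5000 UMIs) in the lowest, middle and highest tercile of 8 gene lists, with exact 95% intervals. The share runs upward along the summed resident-like list, which Pf4 leads (3.33%, 6.46% and 9.35%), and downward along the glycolysis list (11.1%, 5.35% and 2.67%). The cells had passed the marker filter.

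Set against dividing cells of another kind, the cycling macrophages had no spindle gene and many replication genes called lower. The cells used were 341 cycling T cells of the control library (at least 2 UMIs of Mki67 and Top2a, at least 2 of the Cd3 genes and C1q under 0.1% of UMIs). They remained of 445 such cells once those with Sparc-type stromal genes at 0.1% of UMIs or more were left out, a step chosen after the data were seen, and their Sparc-type genes stood at 287 CPM, against 1076 CPM before that step. Cycling macrophages had 1262 of 12125 genes (10.4%) called higher and 2393 (19.7%) called lower, with a median log2 ratio over all genes of -0.27. None of the 29 spindle genes was called (median -0.30), with 3739 CPM in cycling macrophages and 4328 CPM in cycling T cells, and Plk1 stood at 78.7 and 78.2 CPM (0.01, -0.19 to 0.21). The other mitosis lists had more negative medians, with 2 of 21 mitotic kinase and checkpoint genes called lower (median -0.62), 4 of 20 kinetochore genes (-0.54, 597 and 869 CPM in sum) and 3 of 13 APC/C and exit genes (-0.66), and none called higher. Of 39 replication genes 18 were called lower and none higher (median -0.94), with 1338 and 2558 CPM in sum and Mcm5 at 46.3 and 124 CPM (-1.43). Of 17 nucleotide genes 8 were called lower (median -1.0), with Dut, which keeps uracil out of DNA, at 100.1 and 434 CPM (-2.12). MYC and ribosome biogenesis genes summed to 4734 and 8264 CPM, with 9 of 24 called lower. The rule gene Mki67 stood at 246 and 243 CPM.

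Among 14 brakes 3 were called higher in cycling macrophages (against 10.4% of all genes), Maf (2.04) and Cdkn1a (369 and 148 CPM, 1.32) among them, and 3, Gadd45a, Rbl2 and Trp53, were called lower (against 19.7%). Of 18 cyclin and kinase genes 3 were called lower and none higher. The D-type cyclin Ccnd2 was 1 of the 3, at 40.0 CPM in cycling macrophages and 233 CPM in cycling T cells (-2.54), and Ccnd1 (215 and 263 CPM, -0.29) and Ccnd3 (61.9 and 103 CPM, -0.74) were not called. All 20 identity genes and all 20 lysosome genes were called higher in cycling macrophages, and of the CSF1 axis 13 of 18. The genes named for their ratios were Ccl12 (451 and 10.3 CPM, 5.46), Ch25h (5.32), the Fc receptor-like gene Fcrls (5.27), Folr2 (5.06), Ccl8 (4.86), Mertk (4.70), Cbr2 (4.35), Mrc1 (4.32), Pf4 (4.25) and Apoe (4.13) on the macrophage side. On the T cell side they were Penk (-6.69), Nrgn (-5.80), Bcl11b (-5.13), Il2ra (-5.04), Pdcd1 (-5.02), Abcb9 (-5.00), Lat (-4.95), Cd8b1 (-4.95), Icos (-4.94) and Trac (-4.82), several of which act in T cell receptor signalling.

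Among the gated classes of the control library, the share counted as cycling was lower in C1q-positive cells than in T cells at equal depth, with intervals that did not overlap. With all cells gated first and then thinned to 5000 UMIs, 6.65% of C1q-positive cells (105 of 1580, 5.47 to 7.99) and 13.5% of Cd3-positive T cells (11.9 to 15.2) held at least 2 UMIs of Mki67 and Top2a. This T cell gate still held the cells with Sparc-type genes, and without them the T cell share was 11.3% (178 of 1576, 9.77 to 12.96). NK cells with 6.25% and Ly6c2 Ccr2 monocytes with 5.78% (4.39 to 7.44) had intervals that overlapped that of the macrophages. The thinning left out 856 C1q-positive cells and 1385 T cells below 5000 UMIs, and without thinning the shares were 9.81% of C1q-positive cells, 14.2% of T cells (11.6% without the Sparc-type ones), 6.56% of NK cells and 7.04% of monocytes. The summed level of Mki67 and Top2a, which does not depend on a threshold per cell, was 93.4 CPM in C1q-positive cells, 115 CPM in monocytes, 138 CPM in NK cells and 247 CPM in T cells (191 CPM without the Sparc-type ones).

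**Figure D5:**
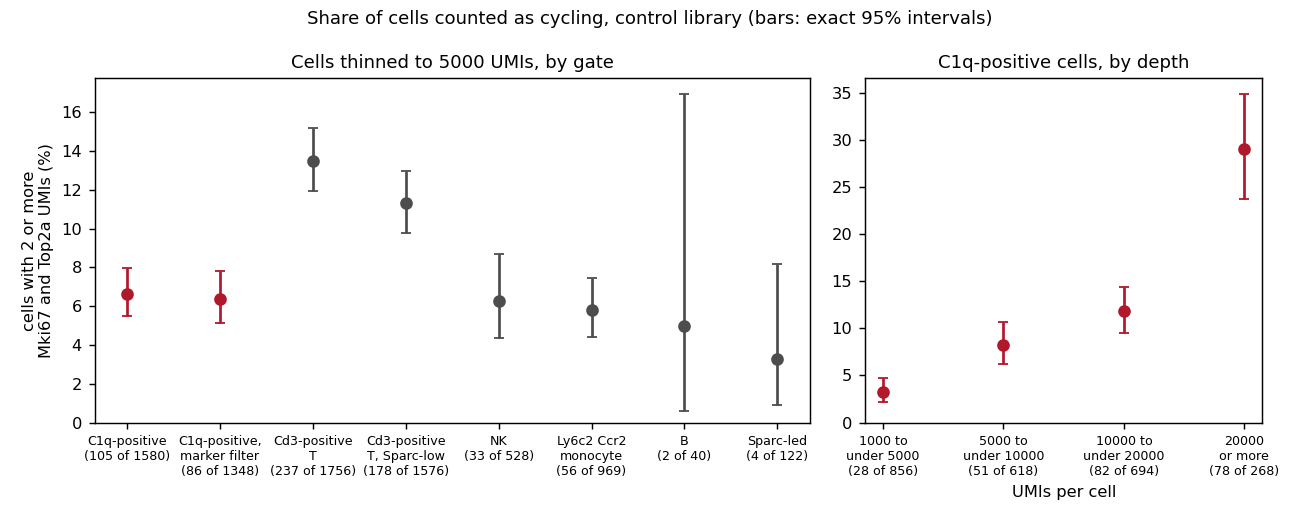
Percent of cells with at least 2 UMIs of Mki67 and Top2a in the control library, with exact 95% intervals, on the left by gate in cells thinned to 5000 UMIs (numbers of cells under each label) and on the right in C1q-positive cells by UMIs per cell before thinning. T cells at 13.5%, or 11.3% without cells bearing Sparc-type genes, stand above C1q-positive cells at 6.65%, and the share in C1q-positive cells runs from 3.27% in the shallowest to 29.1% in the deepest cells.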

How the data were processed

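The values deposited for each library are UMI counts of each gene in each barcode, not normalized. Per the file headers the matrices were written by PISA 0.12, while per the submitters' processing notes Cell Ranger 7.2.0 and the build mm10 were used, so which program counted the UMIs is not settled here. Per the labels the libraries were made with a 10x 3′ kit. The cells, gene lists and tests were chosen with earlier results of these data known.

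UMIs were summed over the cells of a group and divided by the group's total to give CPM. Each log2 ratio carries an exact conditional binomial interval at 95%, and each share an exact Clopper-Pearson interval, both of which cover counting error only, as there was 1 library per condition and no replicate test was possible. Genes needed 20 summed UMIs, and a gene absent from a group was set at 3 counts. A gene was called at 2-fold or more with an interval that left out equal levels. The genes named for their ratios were the 12 with the largest ratios in each direction between cycling and non-cycling cells, and 10 in each direction in the other comparisons, among genes with at least 100 summed UMIs, 50 CPM in the higher group and an interval that left out equal levels, without rule, mitochondrial, ribosomal protein and unnamed genes. Thinning drew UMIs without replacement (seed 0). Scrublet in scanpy 1.11.5 marked 2 cycling and 20 non-cycling cells as doublets, and 0.970% of all control barcodes against 8.99% expected, and they were kept. TMM factors came from edgeR 4.0.16, and Python 3.11.15, numpy 2.4.6, scipy 1.17.1, pandas 2.3.3 and matplotlib 3.10.9 did the rest. The intervals and calls were tried on simulated sums drawn from a Poisson distribution, the model that the intervals assume. Spread between cells was not simulated, so that trial cannot tell how the calls hold where few cells carry a gene. The planned comparison of gene levels between PBM and control cells was not made, because the PBM library held 1 cycling cell. Some genes of the lists are counted but not reported here by name.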

Additional observations from a re-analysis of the deposited data

How the results depend on the processing

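The cell cycle lists other than the brakes kept medians above 0 under every alternative run, while macrophage genes moved with depth and with the C1q limit. The share of cycling cells in the PBM minus the control library was -10.42 percentage points with the marker filter (0 of 11 PBM cells) and -13.85 with C1q at 1% or more (0 of 5). The count of genes called higher was 267 with at least 100 summed UMIs, against 587. The count called lower was 75 with at least 100 summed UMIs, 128 against depth-matched non-cycling cells and 405 with means over cells, against 199, and 54 of the 128 and 155 of the 405 were among the 199. Of the genes called lower, 8 of 142 in cells thinned to 2000 UMIs, 23 of 139 thinned to 5000 and 25 of 138 with C1q at 1% or more were among the 199, so most genes called lower under these settings were not. Of the genes called higher under the same settings, 218 of 700, 351 of 783 and 294 of 538 were among the 587. Most genes called higher in the thinned cells were thus not among the 587 either. Directions turned for Ifit3 (0.14, thinned to 2000 UMIs), S100a9 (0.36, C1q at 1% or more), Retnla (0.51, no Cd3 UMI), Gzma (0.33) and Vcan (0.13, both thinned to 5000), and Ly6c2 (0.043, depth-matched). Among genes that were not called, Cxcl9 (-0.45) and Pf4 (-0.23) turned in cells thinned to 2000 UMIs, as did Ccnd3 (0.57), and Il1b (0.01) and Ccnd1 (-0.09) with C1q at 1% or more, Spp1 (-0.11) and Myc (0.07) against depth-matched cells, and Adgre1 (-0.08) with no Cd3 UMI. The cause was not tested. Under TMM factors 497 genes were called higher and 284 lower, so that 63.6% of calls were higher, against 74.7%, as the median of all genes shifted by -0.12 to -0.03. The medians of the brakes, oxidative phosphorylation, cholesterol synthesis and heat shock lists, all above 0 by less than that shift, were below 0 under it. Thinning to 5000 UMIs and leaving out barcodes over 20000 UMIs were added after the data were seen. No paired analysis was possible because each condition had 1 library. Depth limited genes under about 20 summed UMIs and every statement on the PBM cell.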

Other observations

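Most heat shock genes and all immediate early and MHC class I genes were not called. Of 14 heat shock genes 2 were called lower in cycling cells, against 1.66% of all genes. They were Hspa1a (5.12 and 14.1 CPM, -1.47) and Hspb1 (0.244 and 2.83 CPM, -3.54), both at low levels. The constitutive chaperones Hspa8 stood at 1464 and 1299.9 CPM (0.17) and Hsp90ab1 at 1362 and 1204 CPM (0.18). None of 18 immediate early genes was called, though their median was -0.41 and they summed to 2078 CPM in cycling and 2835 CPM in non-cycling cells. None of 15 MHC class I genes was called (median -0.21, and 0.07 against depth-matched cells). The neutrophil gene S100a9 stood at 6.09 and 45.3 CPM (-2.90), beside 107 and 182 CPM for all 10 neutrophil markers, and no cycling cell but 5 non-cycling cells held S100a8 and S100a9 at 1% of UMIs or more.

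Among the cycling cells, 28 (11.7%) held under 2 UMIs of the receptor genes Csf1r, Adgre1, Mertk and Fcgr1 together, against 444 non-cycling cells (24.2%). That limit depends on depth, and the median depths were 14351 and 6537 UMIs. Mitochondrial genes made up a median of 0.167% of UMIs in cycling and 0.212% in non-cycling cells.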
